A study of Mus musculus with 14 samples.

Results

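Kidney mRNA of the renin-angiotensin system was examined through 9 genes, chosen by name for their roles in the pathway: *Ren1*, *Agt*, *Ace*, *Enpep*, *Mme*, *Agtr1a*, *Agtr1b*, *Mas1*, and *Atp6ap2*. All 9 were found among the 21878 genes listed for every mouse, and 8 of them entered the tests, since *Agtr1b* did not reach 0.1 FPKM in 3 mice. FPKM is a level in sequenced fragments, scaled for transcript length and for the sequencing output of each library.

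The study asked how loss of complement factor B, encoded by *Cfb*, changes the diabetic kidney, and its RNA sequencing covered 14 kidneys, 1 from each of 4 WT diabetic, 4 *Cfb*-/- diabetic, 3 WT control, and 3 *Cfb*-/- control mice. All were male C57BL/6J mice, and diabetes was induced from 8 weeks of age by a high-fat diet (60% of calories from fat) for 4 weeks followed by streptozotocin (STZ), a toxin of pancreatic beta cells, at 60 mg/kg on 5 consecutive days. The controls were given citrate buffer and a chow in which fat supplied 10% of calories, and kidneys were collected 21 weeks after STZ, with a time of 34 weeks given in the labels without its origin. The labels call the deletion a knockdown and give the control mice the treatment entry of the diabetic mice, so groups were read from sample names, which match the diet and disease entries. Diet and STZ were always given together and cannot be told apart. The tissue is labelled only as kidney, so its RNA mixes renal cell types. *Cfb* itself was measured at 56.7 to 131 FPKM in WT mice and at 1.13 to 2.22 FPKM in *Cfb*-/- mice, as the labels state.

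Renin, released by juxtaglomerular cells of the afferent arteriole, cleaves angiotensinogen to angiotensin I, which angiotensin-converting enzyme (ACE) shortens to angiotensin II. Angiotensin II acts on type 1 receptors to constrict vessels and retain sodium, whereas other peptidases degrade it or divert angiotensin I to angiotensin-(1-7), a ligand of the Mas receptor. Proximal tubule cells also make angiotensinogen, and blockade of the system is standard treatment in diabetic kidney disease.

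The peptide on which the system turns is encoded within exon 2 of the 5 exons of *Agt*, at chr8:124564450-124564479 of GRCm38.p6, minus strand, and its 30 coding bases are shown because every later step of the pathway acts on this product. Capitals mark the 8 codons of angiotensin II, and the lower-case bases code for the residues that ACE removes.

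Agt angiotensin I codons: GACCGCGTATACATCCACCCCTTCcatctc

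The 250 bases before the RefSeq transcript starts of *Ren1*, *Agt*, and *Ace* (GRCm38.p6) are shown because these genes stand for the enzyme, the substrate, and the converting enzyme, and because the text below describes their different behavior. *Ace* has a second RefSeq start, whose 250 upstream bases (chr11:105974939-105975188, plus strand) are not shown. The bases shown lie at chr1:133350424-133350673 (plus strand), chr8:124569707-124569956 (minus strand), and chr11:105967698-105967947 (plus strand). Capitals mark the motif TATAAA, searched on both strands.

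Ren1 upstream: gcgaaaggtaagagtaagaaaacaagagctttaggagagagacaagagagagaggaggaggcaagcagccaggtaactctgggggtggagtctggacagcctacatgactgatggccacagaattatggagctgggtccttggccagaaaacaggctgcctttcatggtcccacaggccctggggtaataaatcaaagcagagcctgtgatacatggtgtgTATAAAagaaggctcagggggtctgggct

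Agt upstream: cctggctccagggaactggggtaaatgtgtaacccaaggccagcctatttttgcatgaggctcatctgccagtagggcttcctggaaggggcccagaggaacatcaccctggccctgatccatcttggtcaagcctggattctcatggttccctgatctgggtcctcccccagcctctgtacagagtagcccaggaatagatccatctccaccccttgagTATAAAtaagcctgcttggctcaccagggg

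Ace upstream: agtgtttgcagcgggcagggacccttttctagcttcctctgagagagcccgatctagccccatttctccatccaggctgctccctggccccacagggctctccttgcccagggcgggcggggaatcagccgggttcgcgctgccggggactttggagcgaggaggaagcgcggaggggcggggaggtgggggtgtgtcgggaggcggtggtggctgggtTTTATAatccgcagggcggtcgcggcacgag

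The motif began 29 bases before the start in *Ren1*, 30 in *Agt*, and 31 in *Ace*, where it was read on the opposite strand (TTTATA as printed). The window of the second *Ace* start held 0 matches. Windows of 300 bases, 250 before and 50 after the start, were given for 8 of the 9 genes, and 5 of their 11 windows held the motif, compared with 13.6% of 32851 windows of that length across the genome. A match describes letters in a window and is not evidence of binding.

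Averaged over all 14 mice, *Ren1* (56.0 FPKM), *Agt* (55.9 FPKM), and *Atp6ap2* (53.5 FPKM) had the highest levels of the 9 genes, but the mean of *Agt* was 25.7 and 24.5 FPKM in WT and *Cfb*-/- control mice, below *Enpep* (32.6 and 30.4 FPKM) and *Ace* (32.1 and 38.8 FPKM). *Enpep* (33.2 FPKM), *Ace* (26.6 FPKM), *Mme* (24.6 FPKM), and *Agtr1a* (16.8 FPKM) followed over all mice, and the ranges of neighbors in this order overlapped. *Mas1* (0.215 FPKM, range 0.137 to 0.315) and *Agtr1b* (0.0437 FPKM, range 0 to 0.109) lay far below all others and did not overlap each other.

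**Figure D1:**
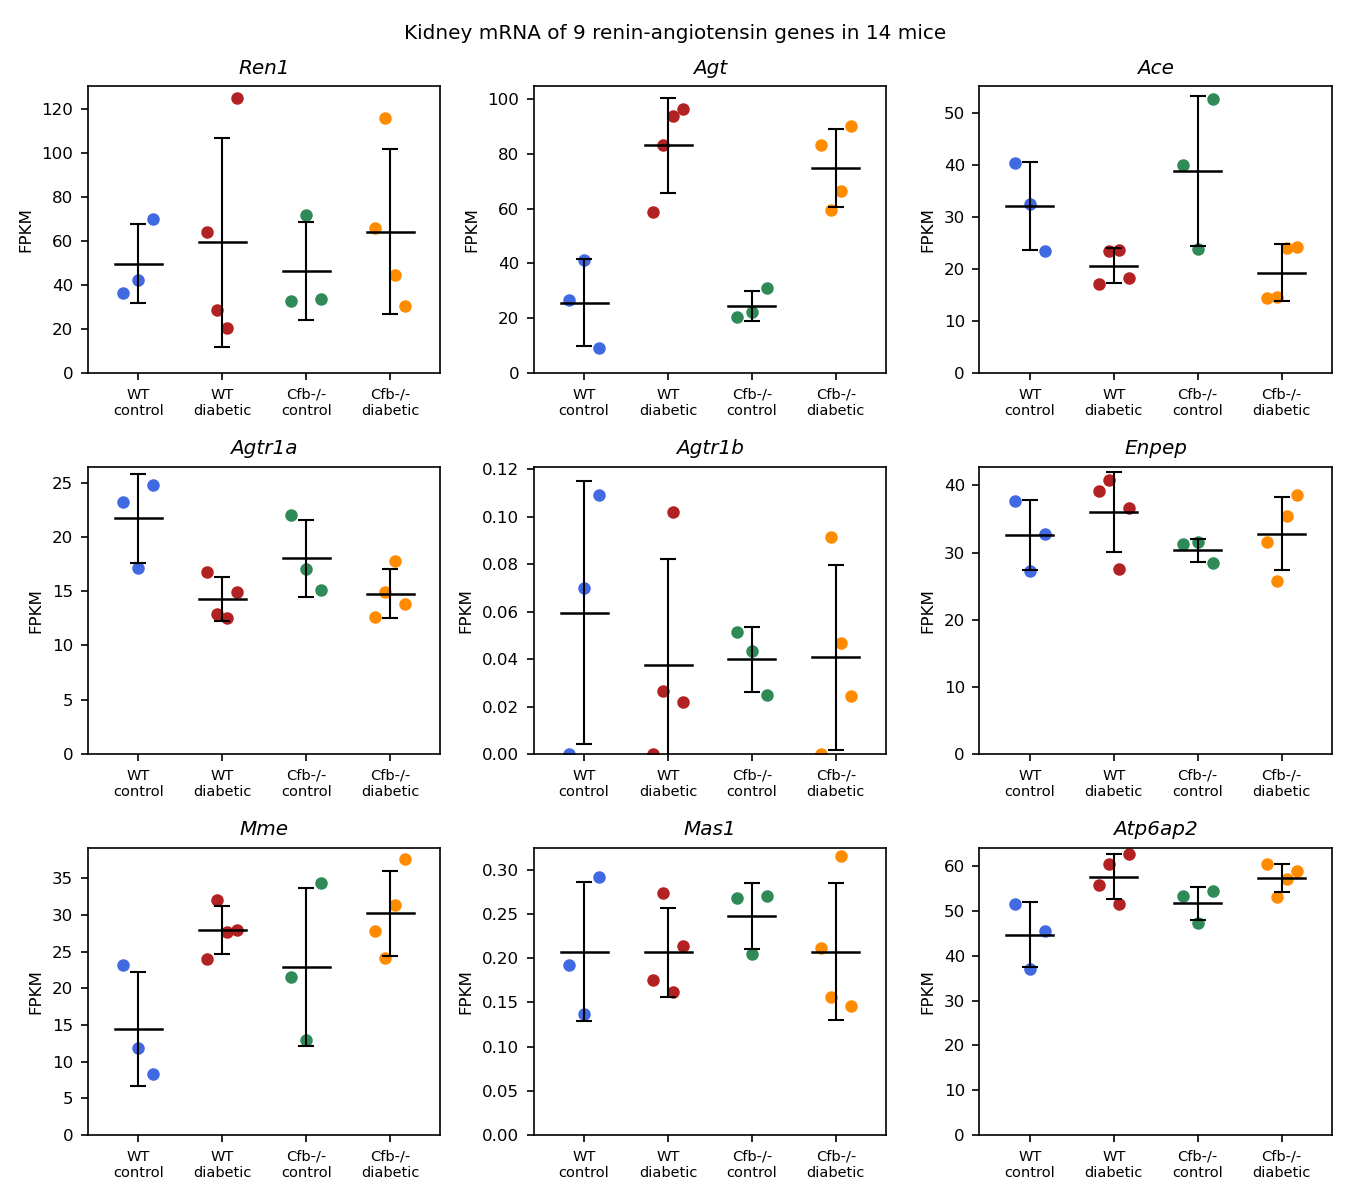
FPKM of each of the 9 genes (vertical axes from 0, each with its own scale) in the 4 groups, with 1 point per mouse, the group mean as a horizontal line, and the SD as error bars (parts below 0 not drawn). *Agt* lies at 58.8 to 96.6 FPKM in the diabetic mice and at 9.29 to 41.2 FPKM in the controls, whereas the groups of *Ren1* overlap.

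Diabetes in WT mice was accompanied by higher *Agt*, *Mme*, and *Atp6ap2* mRNA and lower *Agtr1a* mRNA, so that 4 of the 8 tested genes passed an adjusted p of 0.05 (limma on log2(FPKM + 0.1), Benjamini-Hochberg over 14912 genes). Across all tested genes 46.1% passed in that comparison, so this count lay near the background. By direction, 3 rose against 36.2% of all genes, and 1 fell against 9.97%. In *Cfb*-/- mice, *Agt* was higher and *Ace* lower in diabetes, 2 of 8 genes against 33.8% of all genes, or 1 higher against 27.4% and 1 lower against 6.40%. Under the study's criteria (unadjusted p under 0.05 and a fold change above 2 or below 0.5), 2 of 8 passed in WT mice against 17.5% of all genes and 1 of 8 in *Cfb*-/- mice against 14.9%. The median gene was itself higher in diabetes, by 0.29 (log2) in WT and by 0.22 in *Cfb*-/- mice, and the SE of each difference is given in brackets after it.

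*Ren1*, which encodes renin, the enzyme that starts the cascade, was measured at 36.6, 42.4, and 70.3 FPKM in WT control mice and at 64.1, 28.9, 20.3, and 125 FPKM in WT diabetic mice. In *Cfb*-/- mice it was measured at 32.9, 72.0, and 33.8 FPKM in controls and at 66.2, 116, 44.6, and 30.6 FPKM in diabetic mice. Diabetic mice thus gave both the highest and, with 1 mouse at 20.3 FPKM, the lowest *Ren1* values, and all groups overlapped. The log2 difference with diabetes was -0.04 (SE 0.55, adjusted p = 0.964) in WT and 0.40 (SE 0.55, adjusted p = 0.608) in *Cfb*-/- mice, and the WT value was above 0 under quantile normalization and in TPM (FPKM rescaled to the same sum in every mouse). The 95% confidence interval in WT mice ran from -1.22 to 1.15, so changes within these bounds were not excluded. The within-group SD of *Ren1* was 0.86 on the log2 scale, larger than that of 98.5% of tested genes, whose median was 0.24.

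The order of mice by *Ren1* was followed in all 4 groups by *Akr1b7*, which encodes an aldo-keto reductase known as a marker of renin cells. *Akr1b7* was measured at 2.56, 1.58, 0.991, and 2.91 FPKM in WT diabetic replicates 1 to 4 and at 2.20, 2.73, 1.93, and 0.883 FPKM in *Cfb*-/- diabetic replicates 1 to 4. The summed level of 4 podocyte markers (*Nphs1*, *Podxl*, *Synpo*, and *Wt1*) followed the same order in both diabetic groups, at 93.9, 61.7, 60.0, and 99.7 FPKM in WT and 102, 104, 73.9, and 69.2 FPKM in *Cfb*-/- mice, and in *Cfb*-/- control mice but not in WT control mice. Thus the 4 diabetic mice with the most podocyte marker RNA, WT replicates 1 and 4 and *Cfb*-/- replicates 1 and 2, also had the 4 highest *Ren1* values among diabetic mice. The same 4 mice also stood apart on summed leukocyte markers, at 31.4 to 32.9 FPKM against at most 26.0 FPKM in the other diabetic mice. Their proximal tubule markers summed to 1817 to 2562 FPKM against 2833 to 2915 FPKM. Both sets of mice overlapped on markers of smooth muscle, mesangial cells, and pericytes (102 to 128 against 88.9 to 127 FPKM). They also overlapped on endothelium (114 to 126 against 95.7 to 119 FPKM) and hepatocyte markers (104 to 313 against 144 to 165 FPKM). Their *Ace* values were the 4 lowest of all, 17.2, 18.2, 14.4, and 14.6 FPKM. Of the 4 podocyte markers, 2 rose with diabetes in WT and 4 in *Cfb*-/- mice, against 36.2% and 27.4% of all genes. Under median-ratio scaling 0 rose in WT mice, and under quantile normalization 1 rose in WT and 2 in *Cfb*-/- mice. The part of any of these cell types in the *Ren1* and *Ace* values was not tested.

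**Figure D2:**
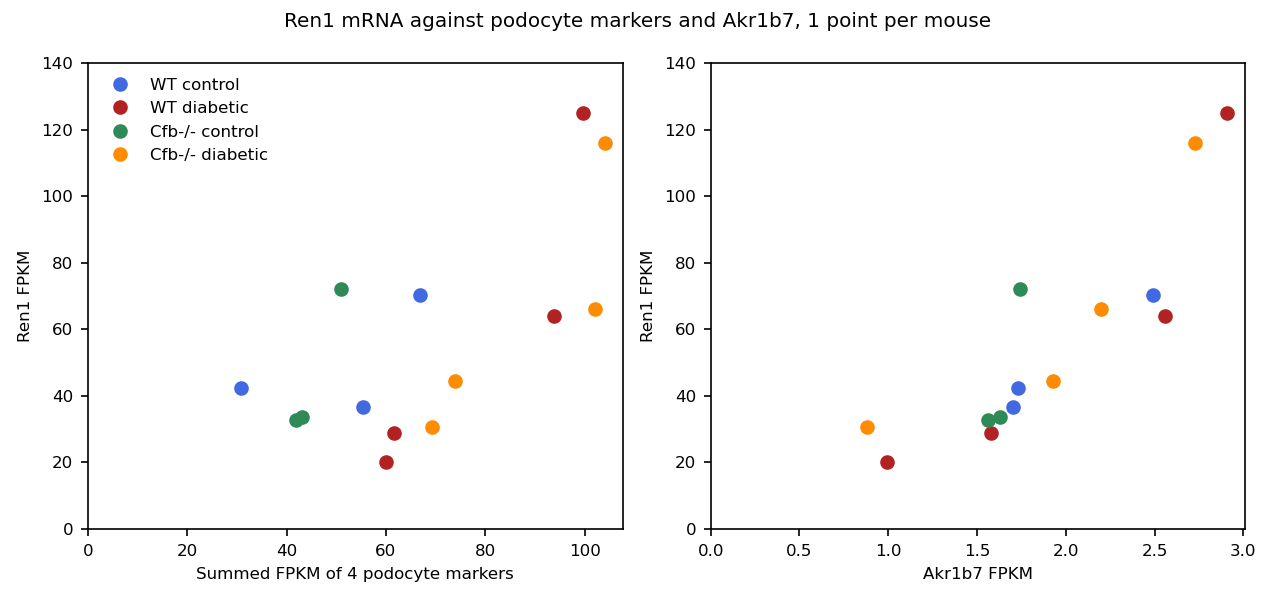
*Ren1* FPKM against the summed FPKM of 4 podocyte markers (left) and against *Akr1b7* FPKM (right), with 1 point per mouse colored by group. The diabetic mice with *Ren1* at 116 and 125 FPKM lie at 104 and 99.7 FPKM of podocyte markers.

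*Agt*, which encodes angiotensinogen, the substrate of renin, was measured at 26.5, 41.2, and 9.29 FPKM in WT control mice and at 58.8, 83.3, 93.7, and 96.6 FPKM in WT diabetic mice. *Cfb*-/- control mice had 20.5, 22.2, and 30.9 FPKM and *Cfb*-/- diabetic mice 83.4, 59.5, 66.5, and 90.2 FPKM. Every diabetic mouse lay above every control mouse of either genotype. The log2 difference was 1.91 (SE 0.36, adjusted p = 0.000923) in WT and 1.61 (SE 0.36, adjusted p = 0.00360) in *Cfb*-/- mice, or 1.62 and 1.39 above the median gene. *Agt* was called under each of the 23 alternatives in both genotypes. With single mice left out, the difference ranged from 1.30 to 2.37 in WT and from 1.49 to 1.79 in *Cfb*-/- mice. The exact permutation test gave p = 0.0571 in each, the smallest that 4 against 3 mice allow.

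Markers of cell types that can express *Agt* also moved. Of 9 proximal tubule markers, the segment that makes *Agt*, 6 fell and 0 rose in WT diabetic mice and 8 fell in *Cfb*-/- diabetic mice, with summed levels of 2331 to 2915 FPKM in WT diabetic against 4813 to 5250.1 FPKM in WT control mice and 1817 to 2912 against 4686 to 4848 FPKM in *Cfb*-/- mice. Over all tested genes 9.97% fell in WT and 6.40% in *Cfb*-/- mice. The proximal tubule markers that fell numbered 7 and 8 under median-ratio scaling, and 3 and 7 both under quantile normalization and in TPM. Of 4 hepatocyte markers, 2 (*Alb* and *Ttr*) rose in both genotypes, against 36.2% of all genes in WT and 27.4% in *Cfb*-/- mice. *Alb* in WT mice was at -0.07 under quantile normalization. The sums that follow are of all 4 hepatocyte markers. Their summed levels were 104 to 313 FPKM in WT diabetic and 51.5 to 86.3 FPKM in WT control mice, and 144 to 232 against 45.3 to 75.7 FPKM in *Cfb*-/- mice. Of these markers, *Alb* stayed between 2.28 and 5.36 FPKM in all mice. *Ttr* was measured at 46.6 to 65.3 FPKM in WT control and 87.8 to 285 FPKM in WT diabetic mice. In *Cfb*-/- mice *Ttr* was measured at 32.2 to 62.7 FPKM in control and 120.1 to 208 FPKM in diabetic mice. Adipocyte markers (4 genes) summed to 1.25 to 5.20 FPKM in WT diabetic and at most 0.0692 FPKM in WT control mice, but to 0.102 to 0.386 FPKM in *Cfb*-/- diabetic and up to 3.43 FPKM in *Cfb*-/- control mice. The part of these markers in the *Agt* values was not tested, and in bulk RNA fewer cells of a type and less RNA per cell cannot be told apart.

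*Ace*, which encodes the enzyme that forms angiotensin II, was measured at 40.3, 32.5, and 23.5 FPKM in WT control mice and at 17.2, 23.4, 23.6, and 18.2 FPKM in WT diabetic mice. *Cfb*-/- control mice had 40.0, 23.9, and 52.6 FPKM and *Cfb*-/- diabetic mice 14.4, 14.6, 24.0, and 24.2 FPKM. Diabetic values were mostly lower, but in each genotype 1 control mouse lay among the diabetic mice. The log2 difference was -0.98 (SE 0.27, adjusted p = 0.0116) in *Cfb*-/- mice and -0.62 (SE 0.27, adjusted p = 0.0720) in WT mice, and the difference between these values did not pass its test (interaction -0.36, SE 0.38, adjusted p = 0.810). Without *Cfb*-/- control replicate 3, the highest *Ace* value, the *Cfb*-/- difference was -0.72 (adjusted p = 0.0661), and the WT difference ranged over the alternatives from -0.90 to -0.31 with adjusted p from 0.0185 to 0.348. An antisense gene, *Gm11651*, overlaps exons of *Ace*, and whether strand was used in quantification is not given in the sources used here.

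*Mme* encodes neprilysin, a brush-border peptidase that forms angiotensin-(1-7) from angiotensin I and also degrades natriuretic peptides. Its level was 23.2, 11.9, and 8.37 FPKM in WT control and 24.0, 32.0, 27.7, and 27.9 FPKM in WT diabetic mice, without overlap. Values in *Cfb*-/- mice were 21.5, 13.0, and 34.4 FPKM in controls and 27.8, 24.1, 31.4, and 37.6 FPKM in diabetic mice, and these groups overlapped. *Mme* was higher by 1.07 (log2; SE 0.32, adjusted p = 0.0146) in WT diabetic mice, and the value in *Cfb*-/- mice was 0.48 (SE 0.32, adjusted p = 0.261), with an interaction of -0.58 (SE 0.45, adjusted p = 0.783). The WT call rested on the low controls, since adjusted p was 0.0601 without WT control replicate 2 and 0.0813 without WT control replicate 3, and 0.0538 under median-ratio scaling. With single mice left out, the *Cfb*-/- value ranged from 0.13 to 0.83 and the interaction from -0.98 to -0.24.

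*Enpep*, which encodes aminopeptidase A, the enzyme that converts angiotensin II to angiotensin III, was not called in any comparison. Its mean level was 32.6 ± 5.22 FPKM (SD, n = 3) in WT control, 36.0 ± 5.92 FPKM (n = 4) in WT diabetic, 30.4 ± 1.72 FPKM (n = 3) in *Cfb*-/- control, and 32.8 ± 5.51 FPKM (n = 4) in *Cfb*-/- diabetic mice. The log2 differences with diabetes were 0.14 (SE 0.16, adjusted p = 0.480) in WT and 0.10 (SE 0.16, adjusted p = 0.658) in *Cfb*-/- mice, both below the shift of the median gene and both negative under median-ratio scaling (-0.14 in each), whereas TPM gave 0.45 (adjusted p = 0.0437) in WT mice, with adjusted p from 0.0437 to 0.946 over the alternatives.

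*Agtr1a* encodes the main type 1 receptor for angiotensin II in the mouse kidney. WT control mice had 23.2, 17.1, and 24.8 FPKM and WT diabetic mice 16.8, 12.9, 12.5, and 14.9 FPKM, so that every diabetic mouse lay below every control mouse. *Cfb*-/- control mice had 22.0, 17.0, and 15.1 FPKM and *Cfb*-/- diabetic mice 12.6, 14.9, 17.8, and 13.8 FPKM, and these overlapped. The WT difference was -0.59 (SE 0.17, adjusted p = 0.0104), or -0.88 relative to the median gene, and the *Cfb*-/- difference was -0.28 (SE 0.17, adjusted p = 0.215), with an interaction of 0.31 (SE 0.23, adjusted p = 0.779). Under median-ratio scaling the *Cfb*-/- difference was also called (-0.52, adjusted p = 0.0202, with 0.0202 to 0.713 over the alternatives). The WT value was -0.29 (adjusted p = 0.225) in TPM and -0.49 (adjusted p = 0.0511) without WT control replicate 3.

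*Agtr1b*, the second type 1 receptor gene of rodents, was listed at 0 in 3 mice and reached at most 0.109 FPKM. The coding sequences of both receptors are 1077 bases long and 90.8% identical, but the longest identical stretch between any of their transcripts is 66 bases, shorter than a read of 125 bases. *Mas1*, which encodes the receptor for angiotensin-(1-7), was detected in all 14 mice at 0.137 to 0.315 FPKM, and its differences with diabetes were 0.01 (SE 0.24, adjusted p = 0.970) in WT and -0.20 (SE 0.24, adjusted p = 0.541) in *Cfb*-/- mice. Quantile normalization gave calls in both, with -0.74 (adjusted p = 0.0263, with 0.0263 to 1 over the alternatives) in WT and -0.86 (adjusted p = 0.0150, with 0.0150 to 0.804) in *Cfb*-/- mice. Among receptors outside the 9 genes, *Agtr2*, which encodes the type 2 receptor, reached at most 0.0727 FPKM.

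*Atp6ap2* encodes the (pro)renin receptor, which is also an accessory subunit of the vacuolar proton pump. It was measured at 51.6, 37.1, and 45.5 FPKM in WT control and 55.9, 60.6, 51.5, and 62.8 FPKM in WT diabetic mice, where the lowest diabetic value lay just under the highest control value. *Cfb*-/- mice had 53.3, 47.4, and 54.4 FPKM as controls and 60.5, 53.1, 57.1, and 58.9 FPKM as diabetic mice. The WT difference of 0.38 (SE 0.11, adjusted p = 0.0148) exceeded the median gene by 0.09 and was 0.09 (adjusted p = 0.431) under median-ratio scaling and 0.25 (adjusted p = 0.0847) without WT control replicate 2. The *Cfb*-/- difference was 0.15 (SE 0.11, adjusted p = 0.319). *Atp6ap1*, the other accessory subunit gene of the pump, differed by 0.12 (adjusted p = 0.308) and 0.11 (adjusted p = 0.381).

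**Figure D3:**
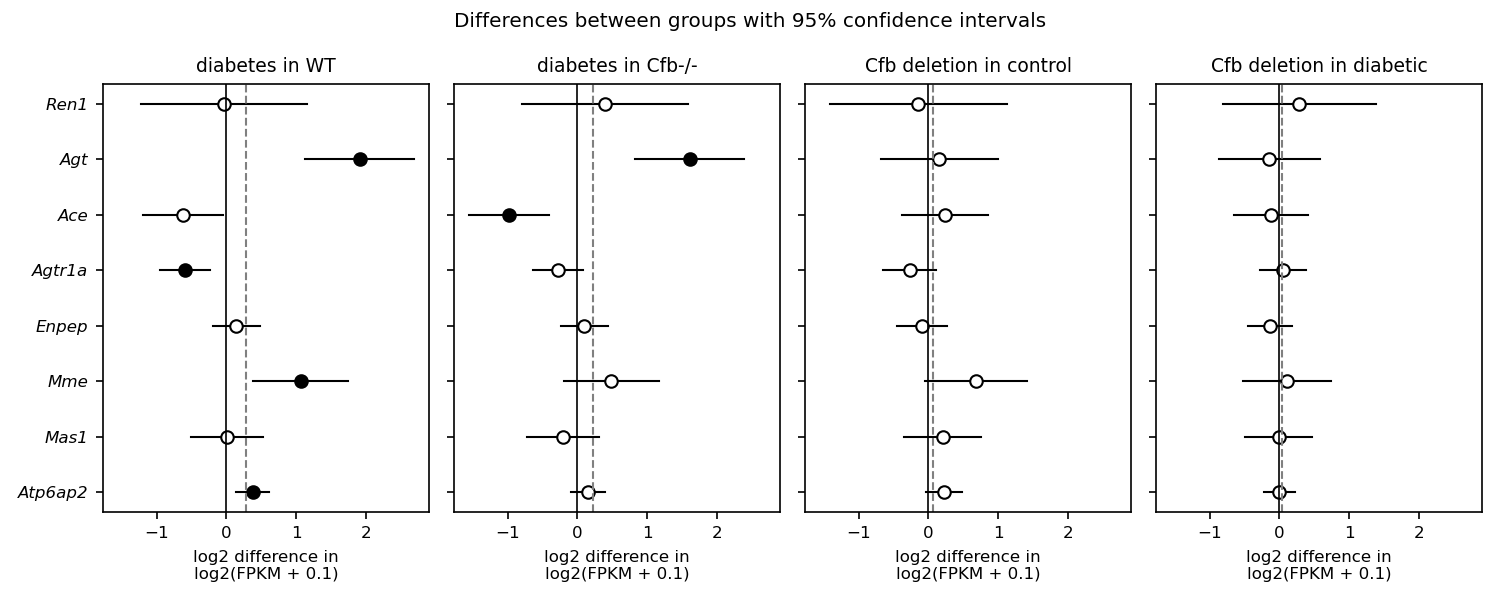
Log2 differences (points, in units of log2(FPKM + 0.1)) with 95% confidence intervals of the 8 tested genes in 4 comparisons, with filled points for adjusted p under 0.05, a solid line at 0, and a dashed line at the median of all tested genes. *Agt* lies at 1.91 and 1.61 with diabetes, and no point is filled in either comparison of *Cfb*-/- with WT mice.

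Groups did not overlap between diabetic and control mice for 3 of 8 genes in WT (*Agt*, *Mme*, and *Agtr1a*), against 45.3% of all genes, and for 1 of 8 in *Cfb*-/- mice (*Agt*), against 42.2%.

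Deletion of *Cfb* was not accompanied by a called change in any of the 8 genes. In control mice 0 of 8 passed, against 0.00671% of all genes, which was *Cfb* itself, and 0 of 8 had an unadjusted p under 0.05 against 17.5% of all genes. This background rested on 1 mouse, since 1724 genes (11.6%) passed without WT control replicate 1. The largest value was that of *Mme*, 0.68 (SE 0.34, adjusted p = 0.305, with 0.0401 to 0.771 over the alternatives), which was 1.09 (adjusted p = 0.0401) without that mouse, so that 1 of 8 passed beside 11.6% of all genes. In diabetic mice 0 of 8 passed, again against 0.00671%, and 0 of 8 had an unadjusted p under 0.05, which 448 of the 14912 genes had. The differences there were 0.29 for *Ren1* (95% confidence interval -0.81 to 1.38), -0.14 for *Agt* (-0.87 to 0.58), -0.12 for *Ace* (-0.66 to 0.41), and 0.05 for *Agtr1a* (-0.28 to 0.38). Values for *Enpep* and *Mme* were -0.13 and 0.10, and those of *Mas1* and *Atp6ap2* were -0.01 and -0.00. The interaction of genotype and diabetes was called for 0 of 8 genes and for 0 of all genes, with an unadjusted p under 0.05 in 0 of 8 and in 5.77% of all genes.

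Of 13 other genes of the angiotensin pathway, 8 were tested, and 2 rose in WT diabetic mice, where 36.2% of all genes rose. These were *Lnpep*, which encodes the aminopeptidase that binds angiotensin IV (1.57, adjusted p = 0.00938), and *Nln*, which encodes neurolysin (0.39, adjusted p = 0.0282, and 0.11 under median-ratio scaling, adjusted p = 0.478). In *Cfb*-/- mice *Nln* rose (0.36, adjusted p = 0.0499) and *Prcp*, which encodes a carboxypeptidase that acts on angiotensin II, fell (-0.36, adjusted p = 0.0121), 1 higher against 27.4% of all genes and 1 lower against 6.40%. *Lnpep* varied widely among WT controls, with 3.33 FPKM in replicate 1 but 0.770 and 1.16 FPKM in replicates 2 and 3. The lowest WT diabetic mouse also had 3.33 FPKM, so replicate 1 was not below it at this precision. In *Cfb*-/- mice *Lnpep* was not called, and controls (2.50 to 5.42 FPKM) overlapped diabetic mice (3.81 to 9.05 FPKM). The median difference over the list was 0.03 in WT and 0.19 in *Cfb*-/- mice, against 0.29 and 0.22 over all genes. Counts of higher and lower genes in WT mice were 1 and 2 under median-ratio scaling and 4 and 0 in TPM. Under quantile normalization they were 0 and 0, so neither *Lnpep* nor *Nln* was called in WT mice there. In *Cfb*-/- mice the counts were 0 and 2 under median-ratio scaling, without *Nln*. They were 1 and 1 under quantile normalization and 3 and 0 in TPM.

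Genes of renin cells and of the macula densa, the tubular sensor that drives renin release, rose in part. Of 8 tested, 5 rose and 0 fell in WT diabetic mice and 3 rose in *Cfb*-/- diabetic mice, against 36.2% and 27.4% of all genes, with median differences of 0.74 and 0.60. The counts were 4 and 2 under median-ratio scaling and 2 and 1 under quantile normalization. *Ptgs2*, which encodes cyclooxygenase 2, had means of 0.0479 and 0.118 FPKM in WT and *Cfb*-/- control mice. The means were 0.581 and 0.451 FPKM in WT and *Cfb*-/- diabetic mice. Of the 6 control mice, 1 reached the filter of 0.1 FPKM, so *Ptgs2* was tested because of its level in diabetic mice (0.280 to 0.922 FPKM), and no fold is given. *Nos1*, another gene of this list, also entered mainly through diabetic mice, at 0.0603 to 0.116 FPKM in controls and 0.0921 to 0.312 FPKM in diabetic mice. *Ptgs2* and *Nos1* are included among the 8 tested genes and in the medians. A gene that enters through diabetic mice is apt to be higher in them. No conclusion is therefore drawn from the counts of this list against the shares of all genes. *Ptger4*, which encodes a prostaglandin E2 receptor of renin cells, rose by 1.30 (adjusted p = 0.00109) and 1.33 (adjusted p = 0.00112). *Ptgs2* and *Ptger4* are also expressed by leukocytes. Leukocyte markers rose in 6 of 6 and 5 of 6 cases, against 36.2% and 27.4% of all genes, with median differences of 1.70 and 1.83. Under quantile normalization 4 leukocyte markers rose in each genotype. The part of leukocytes in these values was not tested. *Akr1b7* differed by -0.06 (adjusted p = 0.900) and 0.13 (adjusted p = 0.813), like *Ren1* without a called change. Markers of vascular smooth muscle, mesangial cells, and pericytes, the lineage of renin cells, rose in 7 of 7 and 5 of 7 cases, against 36.2% and 27.4% of all genes. The counts were 6 and 4 under median-ratio scaling and 3 and 5 under quantile normalization. Their sums were 102 to 127 FPKM in WT diabetic against 45.9 to 57.9 FPKM in WT control mice and 88.9 to 128 against 54.9 to 64.7 FPKM in *Cfb*-/- mice. The part of these markers in the values above was not tested. Adrenal cortex markers, which would mark adjoining adrenal tissue, summed to at most 0.392 FPKM, with *Cyp11b2* at 0 in all mice. Of 11 other subunit genes of the vacuolar proton pump, 1 rose and 2 fell in WT mice, against 36.2% and 9.97% of all genes. In *Cfb*-/- mice 1 rose and 1 fell, against 27.4% and 6.40%. The split depended on scaling, with 0 higher and 6 lower in WT mice under median-ratio scaling. In WT mice 3 were higher and 0 lower under quantile normalization, and 7 higher and 0 lower in TPM.

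**Figure D4:**
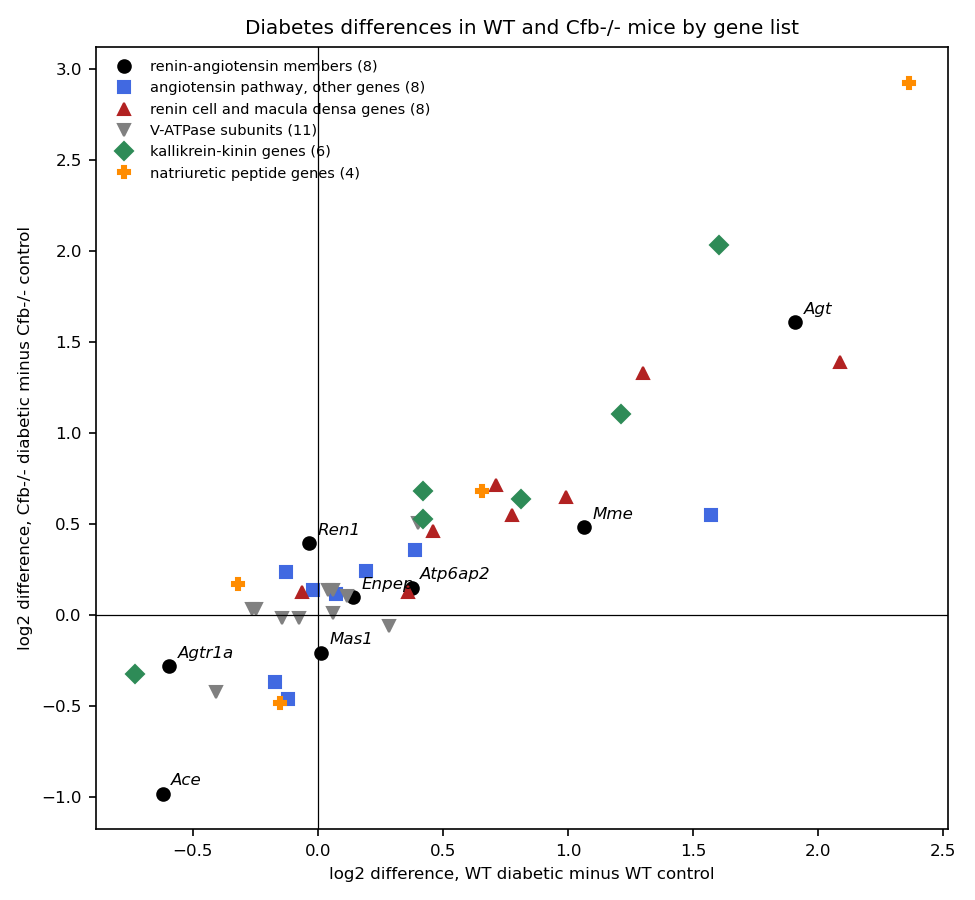
Log2 difference with diabetes in WT mice (horizontal axis) and in *Cfb*-/- mice (vertical axis) for the tested genes of 6 gene lists, with symbols by list and the 8 renin-angiotensin genes named. The axes share no mice, and *Agt* lies far above 0 on both while *Ace* lies below 0 on both.

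By Pearson correlation over all 14 mice, diabetic and control mice together, genes with patterns most like the members were *Gltp* (0.978), *Pla2g16* (0.966), and *Arg2* (0.965) for *Agt*, and *Acad9* (0.975) and *Acsm3* (0.962) for *Ace*. For *Ren1* they were *Batf3* (0.897), *Pgam2* (0.889), and *Atp6v1c2* (0.884), and for *Mme* they were *Slco4c1* (0.975), *Asah1* (0.971), and *Abcc9* (0.968). *Agtr1a* was nearest to *Gm39743* (0.897), *Enpep* to *Folh1* (0.837), *Mas1* to *Slc22a23* (0.842), and *Atp6ap2* to *Rp2* (0.974). Up to 11396 genes were compared, and the values include the difference between diabetic and control mice.

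Summed FPKM per mouse was lower in diabetic than in control mice, at 330246 to 364953 in WT diabetic against 390374 to 488196 in WT control mice, and at 330428 to 341159.8 against 372884 to 394445 in *Cfb*-/- mice. Correlations between mice of a group were 0.981 to 0.990, and 0 pairs of mice had identical values. Read depth is unknown, since FPKM values keep no counts.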

How the data were processed

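Kidney RNA from 14 mice was extracted, checked for an RNA integrity number of at least 7, and made into stranded mRNA libraries, which were sequenced from both ends (125 or 150 bases). The submitters' processing notes name Trimmomatic, HISAT2, Cufflinks, HTSeq, DESeq, and the build GRCm38.p6. The authors deposited 1 FPKM value per gene and mouse, and this unit was inferred from values that are not whole and whose sums differ between mice.

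Values were transformed to log2(FPKM + 0.1) and genes with at least 0.1 FPKM in at least 3 mice were kept (14912 of 21878). limma 3.58.1 (R 4.3.3) with an intensity trend was fitted to the 4 group means of all 14 mice, with Benjamini-Hochberg adjustment over all tested genes and a threshold of 0.05. Single genes were also compared by two-sided exact permutation tests (scipy 1.17.1), whose smallest possible p was 0.0286 for 4 against 4 mice, 0.0571 for 4 against 3, and 0.1 for 3 against 3. Count models were not run because FPKM are not counts. The fit was tested on simulated data. Labels do not say whether mice shared litters or cages.

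All 9 members are named, with counterparts (*Agtr2*, *Akr1b7*, *Atp6ap1*), the most changed called genes of each list (at most 2), genes among the 3 most like, and *Cfb*. Some genes of this rule and of the lists are not reported here. Hepatocyte markers, *Nos1*, and *Gm11651* were named after their values or positions were seen. Members and lists were chosen with earlier results of these data known. Members were correlated with the mean log2 levels of podocyte and of proximal tubule markers (32 relations, of which 0 passed an adjusted p of 0.05). Apart from *Ren1* with podocyte markers, these relations are not reported singly, because the diabetic mice fell into separate sets of 4 by podocyte markers. Alternatives covered pseudocounts of 0.01 and 1, filters, scalings, groups compared alone, a replicate block, the study's criteria (unadjusted p under 0.05 and a fold change above 2 or below 0.5), and each mouse left out. TPM (FPKM rescaled to the same sum in every mouse), and all other scalings of the gene lists, were added after the data were seen. Positions and sequences came from RefSeq and GENCODE M21 tables of GRCm38.p6, and all 9 members matched by gene ID.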

Additional observations from a re-analysis of the deposited data

How the results depend on the processing

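Of 138 alternative fits of the called members, 130 kept direction and call, 8 lost the call, and 0 reversed. Many of these fits could not change the direction. Leaving out a mouse of a group not compared, changing the filter, or comparing groups alone left the difference itself as it was. The study's criteria are not among the 138 fits. The losses are given with each gene in the report. With diabetes in WT mice, 2 members passed the study's criteria (*Agt* and *Mme*) in place of 4, and 2 to 5 passed when single mice were left out, with 2 (*Agt* and *Agtr1a*) without WT control replicate 2, where 32.1% of all genes passed in place of 46.1% (50.4% without WT control replicate 1). In *Cfb*-/- mice 1 member (*Agt*) passed the study's criteria in place of 2, and 1 to 2 passed with single mice left out, with *Agt* alone remaining without *Cfb*-/- control replicate 3, where 30.2% of all genes passed in place of 33.8%. For *Cfb* deletion in control mice the count was 0 to 1, the 1 being *Mme* without WT control replicate 1, where 11.6% of all genes passed in place of 0.00671%.

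The median of all genes, 0.29 with diabetes in WT and 0.22 in *Cfb*-/- mice, became 0.03 and -0.01 under median-ratio scaling, -0.05 and -0.05 under quantile normalization, and 0.60 and 0.41 in TPM, and the share of called genes that were higher went from 78.4% and 81.0% to 50.3% and 56.8%, 44.2% and 49.1%, and 94.0% and 92.0%. Reversals among members were all of values that had not passed. Under median-ratio scaling these were *Enpep* (-0.14 in WT and -0.14 in *Cfb*-/-), *Mas1* in WT (-0.17), *Atp6ap2* in *Cfb*-/- (-0.091), and *Agtr1a* for deletion in diabetic mice (-0.0037). Under quantile normalization they were *Ren1* in WT (0.0165), *Mas1* in WT (-0.74, adjusted p = 0.0263, with 0.0263 to 1 over its alternatives), and *Atp6ap2* for deletion in diabetic mice (0.039). In TPM they were *Ren1* in WT (0.27), *Ren1* and *Enpep* for deletion in control mice (0.0374 and 0.0934), and *Mas1* and *Atp6ap2* for deletion in diabetic mice (0.0313 and 0.0571). A pseudocount of 1 gave 1e-04 for *Mas1* for deletion in diabetic mice. The cause of these changes was not tested.

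With single mice left out, *Ren1* ranged from -0.51 to 0.36 with diabetes in WT, -0.52 to 0.13 for deletion in control mice, and -0.11 to 0.76 for deletion in diabetic mice. For deletion in diabetic mice, *Mas1* ranged from -0.17 to 0.0879, *Agtr1a* from -0.0432 to 0.13, *Mme* from -0.0072 to 0.20, and *Atp6ap2* from -0.0576 to 0.0375. For deletion in control mice, *Agt* ranged from -0.45 to 0.62, *Ace* from -0.0197 to 0.55, and *Enpep* from -0.21 to 0.0201. *Mas1* ranged from -0.16 to 0.20 with diabetes in WT, and the interaction from -0.76 to 0.31 for *Agt* and from -0.17 to 0.08 for *Enpep*.

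With the replicate number as a block, 4 members were called with diabetes in WT mice (42.1% of all genes) and 2 in *Cfb*-/- mice (29.9%), and all 40 member results kept direction and call. The numbers did not pair the mice, since 3 of 19 same-numbered pairs correlated above 0.1 and 0 of 14 mice were closest to a mouse of their own number.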

Other observations

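Of 7 kallikrein-kinin genes, whose peptides oppose angiotensin II and are broken down by ACE, 6 were tested, and 4 rose and 0 fell in each genotype, against 36.2% and 27.4% of all tested genes that rose in WT and *Cfb*-/- mice. In WT and *Cfb*-/- mice 3 and 2 rose under median-ratio scaling, where 1 fell in WT mice, and 3 and 3 rose under quantile normalization. The median difference over the list was 0.62 and 0.66. *Klk1*, the tissue kallikrein of the kidney, whose close paralogs may share its reads, was the most abundant of the list and was measured at 1639 to 2178 FPKM in WT control and 847 to 1751 FPKM in WT diabetic mice (-0.73, adjusted p = 0.0611, and -1.01 under median-ratio scaling, adjusted p = 0.0187, with 0.0187 to 0.509 over the scalings). In *Cfb*-/- mice it was measured at 1521 to 2279.6 FPKM in control and 982 to 2212 FPKM in diabetic mice (-0.32, adjusted p = 0.440). It was named after its values were seen. *Bdkrb2*, which encodes the bradykinin B2 receptor, rose by 1.60 (log2; limma, adjusted p = 0.000398) in WT and by 2.03 (adjusted p = 7.74e-05) in *Cfb*-/- mice. *Kng1*, which encodes a kininogen, the precursor of bradykinin, rose by 1.21 (adjusted p = 0.00248) and 1.10 (adjusted p = 0.00552), and was not called under quantile normalization (0.42 and 0.44, adjusted p = 0.22 and 0.223). Its means lay near the filter, at 0.132 and 0.154 FPKM in control and 0.445 and 0.414 FPKM in diabetic mice. *Kng2*, the other kininogen gene of the list, had means of 45.9 and 53.2 FPKM in control and 79.7 and 81.3 FPKM in diabetic mice. *Kng2* was named after its values were seen.

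Of 6 natriuretic peptide genes, 4 were tested. *Nppc*, which encodes C-type natriuretic peptide, was listed at 0 in all 6 control mice and was measured at 0.181 to 0.815 FPKM in WT diabetic mice and at 0.301 FPKM or more in *Cfb*-/- diabetic mice, so it entered the tests through the diabetic mice and no fold is given. *Npr1*, which encodes the receptor for atrial natriuretic peptide, rose by 0.66 (log2; adjusted p = 0.0102) and 0.68 (adjusted p = 0.0103), values that were 0.38 (adjusted p = 0.0957) and 0.44 (adjusted p = 0.0725) under median-ratio scaling. *Npr2*, the receptor for C-type natriuretic peptide, fell in *Cfb*-/- mice (-0.48, adjusted p = 0.0114) and differed by -0.15 (adjusted p = 0.364) in WT mice, with an interaction of -0.33 (adjusted p = 0.779). In TPM 0 genes of the list were lower in *Cfb*-/- mice, so *Npr2* was not called there. In WT mice 0 genes of the list were lower in the main fit, 1 under median-ratio scaling, and 2 under quantile normalization. For *Cfb* deletion, 0 genes of either list were called by limma.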
